A study of Mus musculus with 9 samples.

Results

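Integrins are cell surface receptors built from an alpha and a beta subunit, and they anchor endothelial cells to the extracellular matrix while passing signals in both directions across the membrane. Beta 1 pairs with most alpha subunits of endothelium, beta 3 pairs mainly with alpha v, and beta 4 pairs with alpha 6. In lymphatic vessels, integrin alpha 9 is needed for the growth of valve leaflets, where it binds a splice form of fibronectin. The genes described here are Itga1, Itga2, Itga3, Itga5, Itga6, Itga9, Itgav, Itgb1, Itgb3 and Itgb4, chosen by name as integrin subunits of endothelial cells, and they are 10 of the 24321 genes in the deposited expression table.

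The libraries hold RNA of meningeal lymphatic endothelial cells (MLECs) from male mice labelled 10 weeks old. There were 3 control libraries from mice given PBS, 3 from mice given GL261 glioma cells and killed about 3 weeks later, and 3 from mice given B16 melanoma cells and killed about 2 weeks later. Both tumor lines are syngeneic to the C57BL/6 strain named by the study. Each library came from 10 sorted cells of meninges pooled from 6 mice, so a replicate is 10 cells of a pool of animals. The p-values measure the spread between such libraries, in which differences between pools and the draw of 10 cells cannot be told apart. The labels describe delivery through the cisterna magna. The study's methods include that route, but describe subdural injection, with other cell numbers, for the collection of MLECs. Its results text gives a single time after injection for both tumors, unlike the labels. Its methods give 2 to 3 weeks, a range that holds both times of the labels. LYVE-1 is named as the lymphatic sorting marker in the labels and in the study's methods, and PDPN in its results text. In such bulk samples, fewer cells of a type and less RNA per cell cannot be told apart.

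Expression was given as FPKM, fragments per kilobase of transcript and 1000000 mapped fragments, a scale that allows for transcript length. Levels of different genes are set side by side on it here. Whether coverage was even along transcripts was not tested, so such comparisons are statements about FPKM. The FPKM of all genes summed to between 652636 and 693117 in control libraries and to between 701951 and 888312 in tumor-associated libraries. Control libraries had 7303, 8688 and 8152 genes above 0, GL261 libraries 10777, 10852 and 9456, and B16 libraries 8736, 9258 and 9950, so each tumor-associated library listed more genes than each control library. The study's sequencing statistics also give fewer aligned reads for each control library than for each tumor-associated one. Effects of depth and of the tumors therefore cannot be told apart. Genes with a mean FPKM between 5 and 20, among them Itga1, Itga3, Itga9, Itgav and Itgb4, were listed at 0 in 30.5%, 17.4% and 23.0% of cases in the control libraries, in 3.99%, 3.54% and 10.1% in the GL261 libraries, and in 15.4%, 11.2% and 8.30% in the B16 libraries (3531 genes). Tbp, used by every cell, was listed at 0 in 2 control libraries, so an integrin gene at 0 is given as listed at 0 and not as absent.

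Genes were tested where 3 or more libraries reached an FPKM of 1, which held for 9955 genes and for all 10 integrin genes. Itga2 passed it through tumor-associated libraries alone. Between the 6 tumor-associated and the 3 control libraries, 0 of the 10 had a limma adjusted p below 0.05, where 3.93% of all genes tested did (391 genes, 289 higher and 102 lower; 238 higher and 145 lower after quantile normalization). At an unadjusted limma p below 0.05 there were 5 of the 10, namely Itga3, Itga5, Itga6, Itgb1 and Itgb3, each higher in tumor-associated MLECs, and 1889 of all genes (19.0%). The libraries of both groups did not overlap for Itga5, Itga6 and Itgb1, which is 3 of 10, all higher with tumor, against 6.08% of all genes tested. None of the 10 was lower without overlap, against 4.44%. Differences are given in units of log2(FPKM + 1), so adding 1 shrinks them where the FPKM is low. The median difference of all genes tested was 0.20, and that of the 10 integrin genes was 1.16.

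Against the control libraries taken alone, 0 of 10 integrin genes passed the adjusted threshold in GL261 (3.49% of all genes, 257 higher and 90 lower, or 173 and 111 after rescaling to equal sums and 187 and 107 after quantile normalization) and 0 of 10 in B16 (2.11%). At an unadjusted limma p below 0.05 there were 4 of 10 in GL261 and 5 of 10 in B16, and 1687 and 1493 of all 9955 genes. The GL261 libraries lay wholly above control for 3 of 10 genes (13.7% of all genes) and wholly below for 1 (8.84%), and the B16 libraries wholly above for 4 (10.2%). Both comparisons use the same control libraries.

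**Figure D1:**
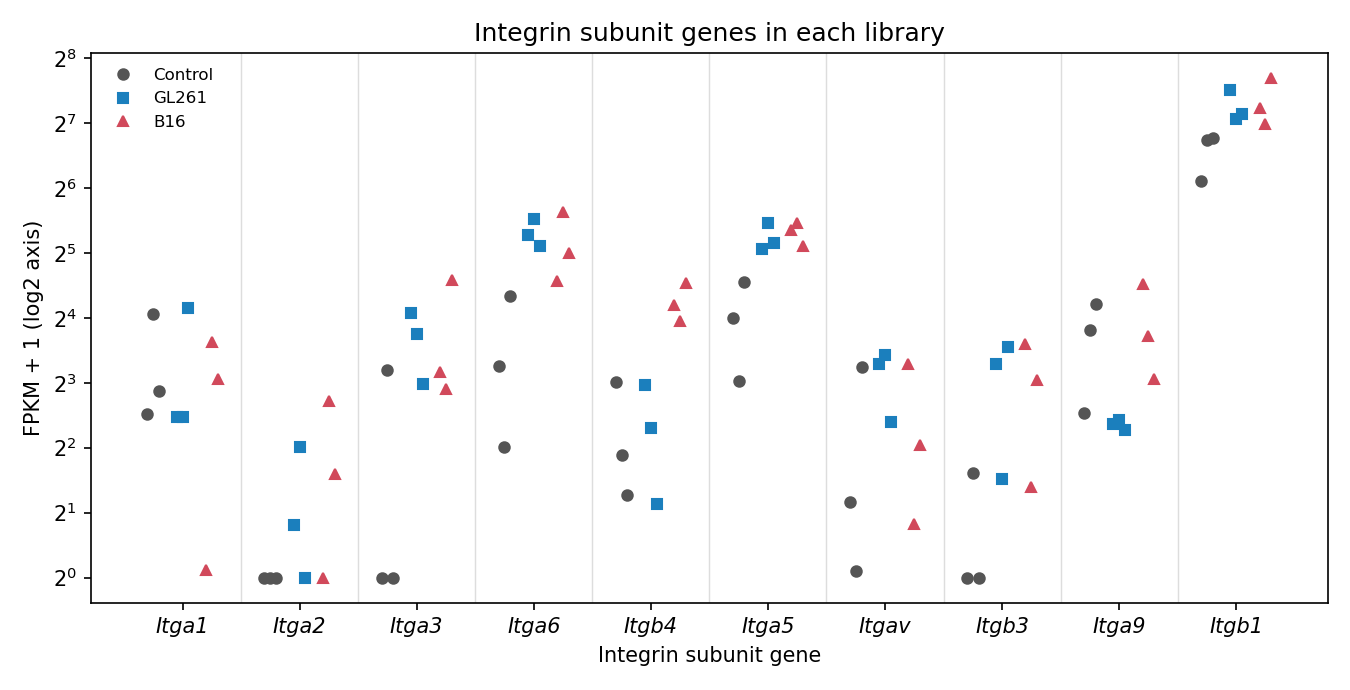
FPKM + 1 of the 10 integrin subunit genes on a log2 axis, with a point for each of the 3 control, 3 GL261 and 3 B16 libraries. Itgb1 is the highest of the genes in every library, and the tumor-associated points of Itga5, Itga6 and Itgb1 all lie above the control points.

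Itgb1 encodes the beta 1 subunit, the shared partner of alpha 1, 2, 3, 5, 6, 9 and v. Its FPKM was 67.9, 106 and 108 in control libraries, 181, 132 and 140.1 with GL261, and 149, 125 and 206 in B16 libraries. All 6 tumor-associated values exceeded the highest control value. The difference of the group means was 0.73 (SE 0.31, 95% confidence interval 0.06 to 1.40, limma adjusted p = 0.224), or 0.53 above the median of all genes. In the exact two-sided permutation test over 84 divisions of the libraries its p was 0.0119, the smallest this design allows, and 10 such tests were made. A p this small needs groups without overlap, so here and for Itga5 and Itga6 it restates that separation. Of all genes tested, 6.08% were higher and 4.44% lower without overlap. After rescaling each library to an equal sum, the libraries of Itgb1 overlapped between groups and the difference was 0.50.

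Itgb1 was the largest of the 10 in every library. It held 62.2%, 67.3% and 58.8% of the summed FPKM of the 10 genes in control libraries, 60.2%, 50.9% and 55.7% in GL261 and 53.4%, 46.6% and 60.1% in B16. The ranges of control and tumor-associated libraries overlapped. Set against the sum of the 7 alpha subunits, Itgb1 stood at ratios of 1.99, 2.26 and 1.45 in control libraries, 1.74, 1.09 and 1.40 in GL261, and 1.47, 0.981 and 1.92 in B16. In 8 of 9 libraries the FPKM of Itgb1 thus exceeded the summed FPKM of the 7 alpha subunits, with B16 replicate 2 as the exception. By longest coding transcript, Itgb1 is the shortest of the 10 genes (3815 bases) and Itgav the longest (7054 bases). The part of transcript length in these ratios was not tested.

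The summed FPKM of the 10 genes was 109, 158 and 183 in control libraries, 300.0, 260 and 252 in GL261, and 278, 269 and 342 in B16. These totals did not overlap between control and tumor-associated MLECs. As a share of all FPKM they were 0.0164%, 0.0228% and 0.0281% in control, 0.0357%, 0.0292% and 0.0327% in GL261, and 0.0366%, 0.0384% and 0.0448% in B16, so that the groups stayed apart relative to the library total as well. The 7 alpha subunits together gave 34.2, 46.9 and 74.1 in control libraries and between 99.7 and 128 in tumor-associated ones.

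Itga6 encodes the alpha 6 subunit, a laminin receptor with beta 1 or beta 4. Its FPKM was 8.53, 3.02 and 19.2 in control libraries, 37.6, 44.7 and 33.5 with GL261, and 22.6, 48.4 and 30.8 in B16 libraries. The highest control library stayed below the lowest tumor-associated one. Itga6 had the smallest p of the 10 genes, with a difference of 1.98 (SE 0.56, 95% confidence interval 0.76 to 3.20, limma adjusted p = 0.0724), or 1.78 above the median of all genes, and an exact permutation p of 0.0119. GL261 exceeded control by 2.10 (limma adjusted p = 0.125) and B16 by 1.86 (limma adjusted p = 0.212). The call depended on the setting. The limma adjusted p fell to 0.0359 when only genes reaching an FPKM of 1 in all 9 libraries were tested and to 0.0304 without control replicate 3, and it ranged up to 0.499 over 18 alternatives.

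Itga3, whose product is another laminin-binding partner of beta 1, was listed at 0 in control replicates 1 and 3 and at 8.13 in control replicate 2. Its FPKM was 15.8, 12.4 and 6.88 with GL261 and 7.97, 6.50 and 23.1 in B16 libraries. All 6 tumor-associated libraries thus had a value above 0, and 3 of them lay below control replicate 2. The difference was 2.51 (SE 0.84, 95% confidence interval 0.69 to 4.34, limma adjusted p = 0.124, exact permutation p = 0.0476), with 2.53 for GL261 and 2.49 for B16. With the number of detected genes as covariate the GL261 value turned to −0.44. With 0.1 added in place of 1, the difference for both tumors joined was 4.65, so its size depends on how the control libraries at 0 are treated. Without control replicate 2 the difference was 3.58 and the limma adjusted p 0.0224, and the p ranged from 0.0224 to 0.839 over 17 alternatives.

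Together, Itga3 and Itga6 summed to 8.53, 11.1 and 19.2 in control libraries, 53.4, 57.1 and 40.3 in GL261, and 30.6, 54.9 and 53.9 in B16. This sum lay apart between control and tumor-associated libraries, as Itga6 did, while Itga3 alone overlapped.

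Itgb4 encodes the beta 4 subunit, which binds laminin with alpha 6 and carries a long tail that connects to plectin. Its FPKM was 7.05, 2.69 and 1.42 in control libraries, 6.80, 3.92 and 1.18 in GL261, and 17.3, 14.5 and 22.3 in B16. Control and GL261 covered the same range, while each B16 library lay above all 6 others. B16 exceeded control by 2.17 (SE 0.83, 95% confidence interval 0.35 to 4.00, limma adjusted p = 0.244), and GL261 differed from control by 0.07 (95% confidence interval −1.75 to 1.90, limma adjusted p = 0.979). That small GL261 value turned to −0.17 after rescaling to equal sums and to −0.22 after quantile normalization. The direct test of GL261 minus B16 gave −2.10 (SE 0.83, 95% confidence interval −3.92 to −0.28, limma adjusted p = 0.827). S100b, a Schwann and glial marker, was also higher in each B16 library (25.3 or more) than elsewhere (at most 3.00). Gfap and Sox2, on the same marker list, were at 0 in all libraries. The part of such cells in the Itgb4 difference was not tested. Itga6 was above Itgb4 in 9 of 9 libraries, so the partner subunit had the lower FPKM of the pair throughout.

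Among the genes tested, GL261 and B16 differed in a single gene by limma (0.01% of 9955; with quantile normalization 2 genes, 1 in each direction), which was not an integrin, and 548 genes had an unadjusted p below 0.05. Of the 10 integrin genes, 0 passed the adjusted threshold and only Itgb4 had an unadjusted limma p below 0.05. GL261 libraries lay wholly below B16 libraries for Itgb4 and Itga9, 2 of 10, against 6.66% of all genes tested. By the labels, tumor type and time after injection differ together here and cannot be told apart.

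**Figure D2:**
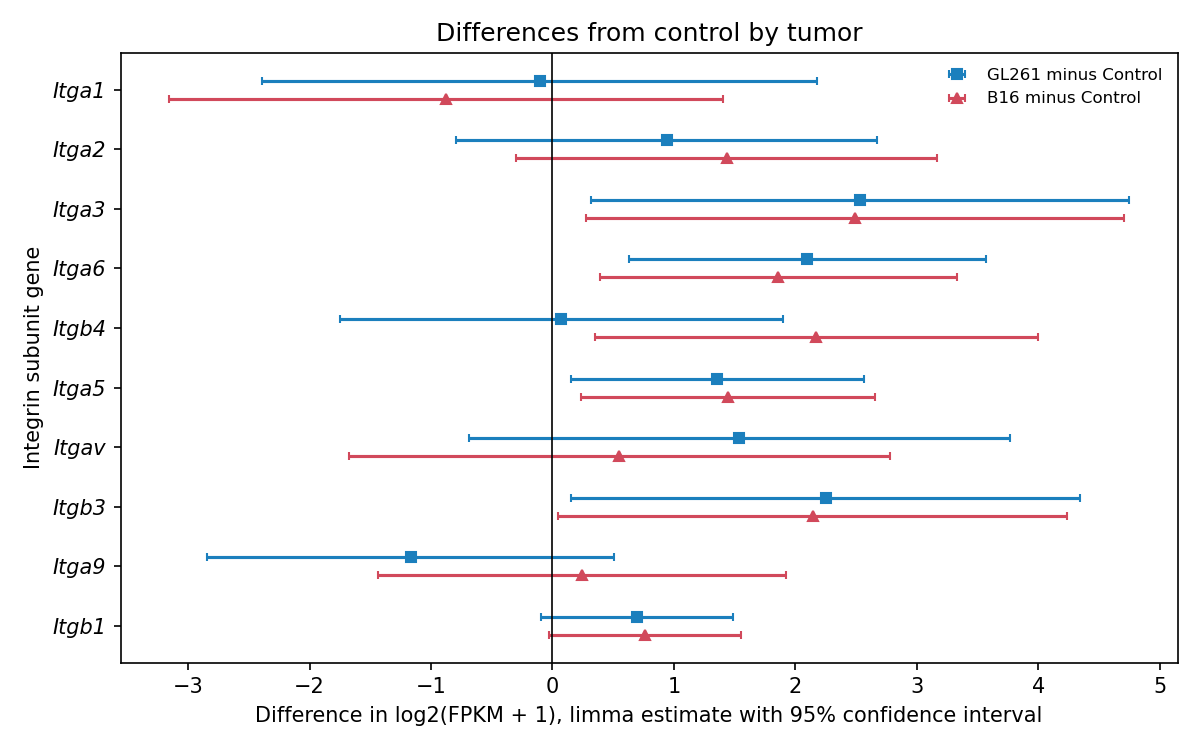
limma differences of GL261 (squares) and B16 (triangles) from control in log2(FPKM + 1), with 95% confidence intervals as bars, for the 10 integrin subunit genes. The intervals of Itga3, Itga5, Itga6 and Itgb3 lie above 0 for both tumors and that of Itgb4 for B16 alone, before adjustment over all genes.

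Itga5 encodes the alpha 5 subunit, the classical fibronectin receptor with beta 1. Its FPKM was 14.9, 7.15 and 22.5 in control libraries, 32.2, 42.8 and 34.4 with GL261, and 39.6, 43.2 and 33.4 in B16 libraries. The tumor-associated libraries lay within a narrow range above all control libraries. The difference was 1.40 (SE 0.46, 95% confidence interval 0.40 to 2.41, limma adjusted p = 0.118, exact permutation p = 0.0119), or 1.20 above the median of all genes. GL261 exceeded control by 1.36 (limma adjusted p = 0.231) and B16 by 1.45 (limma adjusted p = 0.242), and GL261 minus B16 was −0.09 with a 95% confidence interval of −1.30 to 1.12. That small value turned to 0.13 with the number of detected genes as covariate.

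Itgav encodes alpha v, which binds the RGD motif of vitronectin and other ligands. Its FPKM was 1.24, 0.0758 and 8.44 in control libraries, 8.79, 9.81 and 4.26 in GL261, and 8.78, 0.772 and 3.11 in B16. Low and high libraries occurred in both control and B16 MLECs, and the groups overlapped. The difference of 1.04 had a 95% confidence interval from −0.87 to 2.95 (limma adjusted p = 0.551), and was 0.35 without control replicate 2, 1.91 without control replicate 3 and 0.46 after quantile normalization. Itga5 was above Itgav in 9 of 9 libraries.

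Itgb3 encodes the beta 3 subunit, the partner of alpha v and, in platelets, of alpha IIb. It was listed at 0 in control replicates 1 and 3 and at 2.05 in control replicate 2, against 8.74, 1.87 and 10.7 with GL261 and 11.2, 1.62 and 7.26 in B16 libraries. In each tumor group a single library fell below control replicate 2. The difference was 2.196 (SE 0.80, 95% confidence interval 0.46 to 3.93, limma adjusted p = 0.159, exact permutation p = 0.0476), or 4.30 with 0.1 added in place of 1. Platelet markers were looked at beside it. Of 8 such genes 2 could be tested, Itga2b and Pf4, and 0 passed. Each was at 0 in every control library and entered the test through tumor-associated libraries alone. Gp9, Gp6 and Ppbp were listed at 0 in all libraries, and the list summed to 0, 20.4 and 2.10 in control, 16.9, 4.35 and 187.6 in GL261, and 17.0, 55.8 and 35.9 in B16. Pf4, the most abundant over all libraries, stood at 0 in every control library as well as in GL261 replicate 2, and at 12.7 or more in the other 5 tumor-associated libraries. Gp5 went the other way, at 0, 16.3 and 2.10 in control and at 0 in every tumor-associated library, and Gp1ba was above 0 only in control replicate 2 (2.72). The part of platelets in the Itgb3 difference was not tested. Itgav was above Itgb3 in 4 of 9 libraries.

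Itga1 and Itga2 encode collagen receptors. The first gives alpha 1, which prefers the collagen of basement membranes, and the FPKM of Itga1 was 4.72, 15.6 and 6.30 in control libraries, 4.57, 4.58 and 16.8 in GL261, and 0.0847, 11.4 and 7.31 in B16. The groups overlapped across their whole range, with a difference of −0.49 (95% confidence interval −2.41 to 1.43, limma adjusted p = 0.816). Without B16 replicate 1 the difference was 0.02. Itga2 encodes alpha 2, which prefers fibrillar collagen, and it was listed at 0 in all 3 control libraries. Its FPKM was 0.751, 3.04 and 0 in GL261 and 0, 5.56 and 2.02 in B16. Itga2 was thus above 0 in 4 of 6 tumor-associated libraries (limma difference 1.19, adjusted p = 0.367). Its mean FPKM lay below the band of 5 to 20 used above, so zeros at its level were not counted.

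Itga9, the valve integrin, had an FPKM of 4.81, 13.0 and 17.6 in control libraries, 4.14, 4.36 and 3.84 with GL261, and 22.0, 12.1 and 7.32 in B16 libraries. The 3 GL261 libraries lay close together and below every other library. Control and B16 covered nearly the same range. GL261 differed from control by −1.17 (SE 0.77, 95% confidence interval −2.84 to 0.51, limma adjusted p = 0.481), B16 from control by 0.24 (SE 0.77, 95% confidence interval −1.43 to 1.92, limma adjusted p = 0.919), and GL261 from B16 by −1.41 (SE 0.77, 95% confidence interval −3.09 to 0.27, limma adjusted p = 0.985). For B16 the sign was not stable. Without control replicate 1 that difference was −0.25, and without B16 replicate 1 it was −0.14. Both tumors joined gave −0.46 (95% confidence interval −2.03 to 1.11, limma adjusted p = 0.785, exact permutation p = 0.512), with −0.95 without control replicate 1 and −0.11 without control replicate 3. With the number of detected genes as covariate the joined value turned to 0.32.

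Within the alpha subunits, Itga9 took 14.1%, 27.7% and 23.8% of the summed FPKM in control libraries, 3.99%, 3.59% and 3.85% in GL261, and 21.7%, 9.46% and 6.84% in B16. Control replicate 1 was below B16 replicate 1, so control and B16 shares overlapped, and the GL261 shares lay below both. Itga5 and Itga6 made up most of the rest, except in control replicate 2. Itga6 took 24.9%, 6.44% and 25.9% in control, 36.2%, 36.7% and 33.6% in GL261, and 22.4%, 37.8% and 28.8% in B16. Itga5 took 43.6%, 15.2% and 30.4% in control and between 31.0% and 39.2% in tumor-associated libraries. Control replicate 2 stood apart in this composition, with 33.2% Itga1 and the lowest shares of Itga5 and Itga6. Its share of Itga3 (17.3%) was the highest of the controls but below that of B16 replicate 3 (21.5%).

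**Figure D3:**
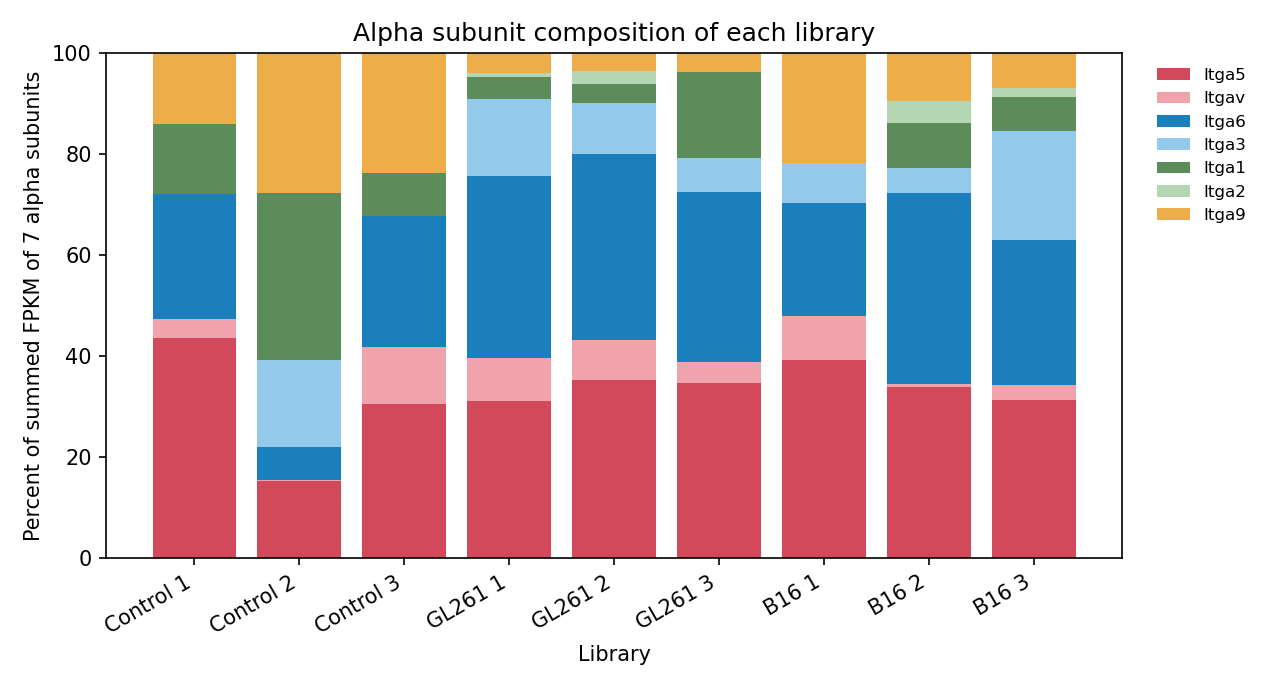
Percent of the summed FPKM of the 7 alpha subunit genes taken by each gene, as stacked bars for each of the 9 libraries. Itga9 holds between 14.1% and 27.7% in control libraries and between 3.59% and 3.99% in GL261 libraries.

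Among the beta subunits, Itgb1 held 90.6%, 95.7% and 98.7% in control, 92.1%, 95.8% and 92.2% in GL261, and 83.9%, 88.6% and 87.4% in B16. The B16 shares of Itgb1 were below those of the other 6 libraries. Itgb4 took 9.80%, 10.2% and 9.47% of the summed beta FPKM in B16, and 9.40% in control replicate 1.

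Ordered by median FPKM, control MLECs had Itgb1 (106), Itga5 (14.9), Itga9 (13.0), Itga6 (8.53), Itga1 (6.30), Itgb4 (2.69) and Itgav (1.24), with Itga2, Itga3 and Itgb3 at a median of 0. In GL261 the order began with Itgb1 (140.1), Itga6 (37.6), Itga5 (34.4) and Itga3 (12.4), and Itga9 (4.14) took place 8. In B16 it began with Itgb1 (149), Itga5 (39.6), Itga6 (30.8), Itgb4 (17.3) and Itga9 (12.1). Of the 9 neighbouring pairs in each order, the library ranges overlapped in 7 for control, 6 for GL261 and 7 for B16. Itgb1 was apart from its neighbour in each group, and the ranges of Itga5 and Itga6 overlapped in each, while within libraries Itga5 was above Itga6 in 3 of 3 control, 1 of 3 GL261 and 2 of 3 B16 libraries.

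The integrin genes lie on 6 chromosomes in the mm9 assembly. Itga2 (chr13:115626124-115722249) and Itga1 (chr13:115748287-115892172), both on the minus strand, are 26037 bases apart. Chromosome 11 carries Itga3 (chr11:94905788-94938115), Itgb3 (chr11:104469370-104531790) and Itgb4 (chr11:115836023-115869726). Itga6 (chr2:71583673-71696473) and Itgav (chr2:83564554-83647073) are on chromosome 2, Itgb1 is at chr8:131209554-131257100, Itga9 at chr9:118515808-118810121 and Itga5 at chr15:103174720-103197194. Itga9 spans 294314 bases, the longest of the 10.

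RefSeq promoter sequences (GRCm38.p6) were at hand for 7 of the 10 genes, without Itga6, Itgb3 and Itgb4. The 250 bases before the start of Itga5 and Itgb1, which both lay apart between control and tumor-associated MLECs, are shown. Capitals mark GGGCGG, the GC box, in either direction, the only match in these windows among 4 motifs searched on both strands. The others were CCGGAA, the AP-1 site and the TATA box. CCGGAA is a string of ETS sites longer than their core GGAA, which was not searched for and stands in both windows. Itga5 is at chr15:103366792-103367041 on the minus strand and Itgb1 at chr8:128685404-128685653 on the plus strand.
Itga5: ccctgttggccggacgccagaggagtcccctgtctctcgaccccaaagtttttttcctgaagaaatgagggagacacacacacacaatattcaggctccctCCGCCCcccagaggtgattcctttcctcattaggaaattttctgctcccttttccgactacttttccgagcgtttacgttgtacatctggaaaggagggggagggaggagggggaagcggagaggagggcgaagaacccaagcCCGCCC
Itgb1: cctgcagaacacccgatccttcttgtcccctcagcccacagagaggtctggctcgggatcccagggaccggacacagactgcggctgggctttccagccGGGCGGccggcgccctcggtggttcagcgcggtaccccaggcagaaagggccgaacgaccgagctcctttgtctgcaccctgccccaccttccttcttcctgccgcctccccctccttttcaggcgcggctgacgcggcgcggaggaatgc
GGGCGG occurred 2 times before Itga5 and 1 time before Itgb1, and 32.7% of 32851 mouse promoter windows of the same length hold it. Of those windows, 12.03% hold CCGGAA on either strand. The AP-1 site, searched for with any base in its middle position as TGANTCA, is in 6.75%. The TATA box, searched for by the letters TATAAA, is in 12.4%. The GC content was 55.6% for Itga5 and 68.0% for Itgb1, with a median of 52.4% over all windows. A match is a description of the sequence and shows no binding.

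Genes with the pattern most like that of a member were found by the mean absolute difference of centred log2(FPKM + 1) over the 9 libraries. For Itga9, compared with the 7744 other genes whose range across libraries was no smaller, they were Mfhas1 (0.30), Itpr1 (0.37) and Tpcn1 (0.37). Mfhas1 had an FPKM of 0, 3.43 and 2.27 in control, 0.105, 0.631 and 0 in GL261, and 3.86, 1.58 and 1.65 in B16, so it was lowest in GL261 and in control replicate 1, as Itga9 was. For Itga6, compared with 4318 genes, they were H2-L (0.33), Adgrl2 (0.33) and Srsf1 (0.33). Adgrl2 had 1.04, 0.0889 and 4.53 in control, 11.1, 5.51 and 6.10 in GL261, and 5.27, 12.9 and 14.7 in B16, with control replicate 2 lowest and control replicate 3 highest of the controls, the order also seen for Itga6.

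Of 16 other integrin subunit genes in the table, 2 could be tested, 0 passed by limma, and 6 were listed at 0 in all libraries. Itgb2, the leukocyte beta 2 subunit, had an FPKM of 59.6, 0 and 6.90 in control, 40.5, 7.18 and 3.49 in GL261, and 0, 0 and 71.7 in B16. Its alpha partners Itgal and Itgad were listed at 0 in all libraries, Itgam reached 0.119 at most and Itgax 1.58. Itga2b, the platelet alpha IIb subunit, was listed at 0 in control and reached 4.11 in GL261 and 1.57 in B16, so it was tested through tumor-associated libraries alone.

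Among proteins that activate integrins and form adhesion complexes, 1 of 20 tested genes of a list of 26 passed, where 3.93% of all genes did, with a median difference of 0.14 against 0.20 for all genes. Lims2 encodes PINCH-2, an adaptor that binds integrin-linked kinase, and rose from 27.4, 11.6 and 0 in control to 78.9, 65.5 and 48.3 in GL261 and 118, 190.3 and 116 in B16. The difference was 3.73 (SE 0.85, limma adjusted p = 0.0280), and the call was lost in 8 of 17 alternatives, among them without GL261 replicate 1, B16 replicate 2 or B16 replicate 3. Lims1, on the same list, went the other way without overlap and without a call (difference −1.18, limma adjusted p = 0.0944). It had 115, 152 and 132 in control and between 38.5 and 76.4 with tumor. Of the 20 tested genes of the list, 13 were higher. From a list drawn up as integrin inactivators, 0 of 5 tested passed by limma (6 listed). Slc3a2 was placed on it wrongly, since its product, the CD98 heavy chain, promotes signalling through beta 1 tails, so no median is given. It had 79.4, 128 and 124 in control, 92.4, 116 and 67.2 in GL261, and 242, 296 and 195 in B16, and Sharpin had between 4.92 and 41.3.

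In the trafficking of integrins, 1 of 9 tested genes passed (11 listed, median 0.76), beside 3.93% and a median of 0.20 for all genes. Nrp1, a coreceptor of VEGF that also promotes uptake of alpha 5 beta 1 integrin, rose from 0.106, 0.819 and 0 in control to 7.45, 34.0 and 20.6 in GL261 and 6.85, 39.5 and 21.8 in B16 (difference 3.91, SE 0.74, limma adjusted p = 0.0106). Nrp1 was below 1 in each control library and so entered the test through tumor-associated libraries alone, and its call was lost in 1 of 17 alternatives. Of 10 membrane partners of integrins, all tested, 1 was higher and 1 lower, with a median of −0.13, against the same values for all genes. The tetraspanin gene Cd63 fell from 807, 969 and 952 in control to 406, 240.0 and 394.5 in GL261 and 567.7, 241 and 471 in B16 (difference −1.30, SE 0.30, limma adjusted p = 0.0283, lost in 7 of 18 alternatives). Plaur, the urokinase receptor, rose from 0, 76.2 and 17.1 to 179, 141 and 122.7 in GL261 and 400.4, 230.2 and 226 in B16 (difference 4.17, SE 0.98, limma adjusted p = 0.0320, lost in 11 of 17 alternatives).

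The matrix ligands of the 10 integrins had 4 of 22 tested genes higher and 0 lower (34 listed, median 0.60), beside 289 higher and 102 lower of all 9955. Col4a1 and Col4a2 encode the chains of basement membrane collagen, a ligand of alpha 1 and alpha 2. Col4a2 rose from 19.2, 25.6 and 52.7 in control to 183, 186 and 137 in GL261 and 138, 219 and 186 in B16 (difference 2.50, SE 0.37, limma adjusted p = 0.00198). Col4a1 rose from 22.8, 75.8 and 69.0 to 178, 218 and 197 in GL261 and 191, 311 and 301 in B16 (difference 2.18, SE 0.40, limma adjusted p = 0.00837). Each lost its call in 1 of 18 alternatives, that with the number of detected genes as covariate. Their receptor genes Itga1 and Itga2 gave no call.

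Mfge8, an RGD ligand of alpha v integrins, rose from 50.4, 101 and 28.3 to 148, 231 and 152 in GL261 and 259, 793 and 325 in B16 (difference 2.31, SE 0.53, limma adjusted p = 0.0286, lost in 8 of 18 alternatives). Vwf, von Willebrand factor, an RGD ligand of beta 3 integrins that is also on the list of blood endothelial markers below, rose from 0, 1.92 and 0.0956 to 62.2, 26.8 and 54.1 in GL261 and 21.2, 3.67 and 43.0 in B16 (difference 4.23, SE 0.85, limma adjusted p = 0.0142, lost in 2 of 17 alternatives). Among the partners of Itgb4, 0 of 3 tested genes passed (4 listed, median −0.01). Col17a1, which hemidesmosomes of skin contain, was listed at 0 in all libraries. Cd151, the tetraspanin of laminin-binding integrins, had 152, 188 and 92.0 in control, 157, 126 and 178 in GL261, and 189, 254 and 323 in B16, and Plec had between 4.27 and 16.01.

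Marker genes of cell types moved with the groups beside the integrins. Of 13 blood endothelial markers, all tested, 10 were higher and 0 lower (median 4.23), beside 289 higher and 102 lower of all 9955 genes. Of these 10, Flt1, Ly6c1 and Aplnr were below 1 in each control library and were tested through tumor-associated libraries alone. Their summed FPKM was 2535, 3720.0 and 2963 in control libraries, 16448, 14538 and 8365 in GL261, and 6832, 8884 and 8904 in B16, with Plvap most abundant over all libraries, though Cldn5 led in control and Ly6a in GL261 by group mean, and with Ly6c1 and Aplnr at 0 in each control library. Of 8 tested lymphatic endothelial markers 0 were higher and 4 lower (9 listed, median −2.45), with sums of 13419, 17005 and 13935 in control, 2074, 1075 and 2941 in GL261, and 6698, 2133 and 4104 in B16, with Ccl21c most abundant over all libraries but Lyve1 in GL261 by group mean. Prox1, the defining lymphatic factor, was above 0 in all 9 libraries and lower with tumor without overlap, at 20.9, 33.7 and 42.2 in control, 1.87, 1.98 and 16.5 in GL261, and 2.37, 3.72 and 3.12 in B16 (difference −2.79, limma adjusted p = 0.0509). Of 8 pan-endothelial markers 2 were higher and 0 lower, with sums between 589 and 835 in control and between 1385 and 2146 with tumor, with Eng most abundant over all libraries. Itga5, Itga6 and Itgb1 are also made by blood endothelium, and the part of these marker shifts in the integrin differences was not tested.

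The 11 valve markers, among them Itga9 itself, had 1 call, a higher Gata2, while 3 of 11 were higher at all (median −0.46), beside 3.93% called, 57.2% higher and a median of 0.20 for all genes, and the list summed to 358, 303 and 533 in control, 184, 302 and 341 in GL261, and 215, 279 and 271 in B16, with Gja1 most abundant over all libraries. Of the 3 higher genes, Foxc2 was listed at 0 in each control library and was tested through tumor-associated libraries alone. The list median is the difference of Itga9 itself, so it is no separate comparison for that gene. Mural markers had 0 calls among 3 tested of 9, and their sum was 1268 in control replicate 1, 203 and 170 in the other control libraries, 57.1, 17.6 and 68.1 in GL261, and 101, 137 and 126 in B16, with Kcnj8 most abundant over all libraries but Tagln in control by group mean, and Des listed at 0 in all. Acta2 (505) and Tagln (641) were far higher in control replicate 1 than elsewhere (at most 6.34 and 2.15), and without that library the differences of Itga5, Itga6 and Itgb1 were 1.47, 2.01 and 0.51. Fibroblast and meningeal markers had 1 lower call, Dcn, among 2 tested of 8, which was below 1 in each tumor-associated library and entered the test through the control libraries alone. It was the most abundant over all libraries, though Foxc1 led in GL261 and B16 by group mean. The list summed to 32.7, 79.5 and 16.4 in control and between 1.66 and 19.9 with tumor, and Lum was listed at 0 in all libraries.

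The defining leukocyte gene Ptprc was listed at 0 in all libraries, and leukocyte markers, with 0 calls among 4 tested of 12, summed to 125, 175 and 67.5 in control, 62.3, 371 and 19.1 in GL261, and 37.4, 27.9 and 76.2 in B16, with Lyz2 most abundant over all libraries but Itgb2 in B16 by group mean. Epithelial, melanoma and red cell markers had no gene that could be tested, were led by Krt18, Pmel and Hba-a1, and summed to at most 9.08, 4.07 and 9.12 in any library. Schwann and glial markers had 0 calls in 1 tested of 8, S100b, which was at 37.0, 36.5 and 25.3 in B16 and at most 3.00 elsewhere, while Gfap and Sox2 were listed at 0 in all libraries. Of 10 genes that every cell uses, 4 were higher and 0 lower, with a median of 0.34, beside 289 higher and 102 lower of all 9955 genes and a median of 0.20, and they summed to 15700, 18895 and 18948 in control, 24867, 24130 and 24948 in GL261, and 19881, 22771 and 25588 in B16, led by Ppia.

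The number of genes above 0 also moved with the groups. With that number as a covariate, the differences of the integrin genes were 1.91 for Itga6 (limma adjusted p = 0.499), 1.69 for Itga5 (0.463), 2.25 for Itgb3 (0.584), 1.01 for Itga3 (0.839), 0.42 for Itgb1 (0.822), 2.15 for Itgb4 (0.617), 0.53 for Itgav (0.943), 0.64 for Itga2 (0.884), −1.42 for Itga1 (0.784) and 0.32 for Itga9 (0.957). The values of Itga5, Itga6 and Itgb3 stayed near those without the covariate, whereas those of Itga3 and Itgb1 were smaller and that of Itga9 changed sign. Those of Itgav and Itga2 were smaller as well (1.04 and 1.19 without it). Itgb4 was larger than without it (1.12, limma adjusted p = 0.503), and Itga1 lay further below 0 (−0.49 without it).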

How the data were processed

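The authors aligned the reads to mm9 with TopHat2 2.0.12 and deposited FPKM per gene symbol from Cufflinks 2.2.1, per the submitters' processing notes, for 9 Smart-seq2 libraries. The gene annotation is not given in the sources used here. FPKM hold no counts, so no counting error could be given. No pair of libraries was identical, and 0 columns of values went unused.

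Here the deposited FPKM were taken as log2(FPKM + 1), and genes reaching an FPKM of 1 in 3 or more libraries were tested with limma 3.58.1 in R 4.3.3 (lmFit, eBayes with a trend, Benjamini-Hochberg over all genes tested, threshold 0.05). GL261 and B16 were joined for tumor against control, and a fit of 3 groups gave the other comparisons. The script was tested on simulated data. Single integrin genes also had the two-sided exact permutation test. Python 3.11.15 with pandas 2.3.3, numpy 2.4.6 and scipy 1.17.1 made the tables, and matplotlib 3.10.9 the figures. Gene positions came from GENCODE M1, promoters from RefSeq (GRCm38.p6). The integrin genes and all lists were chosen with earlier results of these data known. Named are all 10 integrin genes, of each integrin-related list at most 4 genes past the threshold by smallest p, or else its 2 most abundant, the most abundant gene of each marker list, and the 3 genes most like Itga9 and Itga6 in pattern. Other genes, such as Prox1, Flt1, Cldn5, Ly6a, Gp5, Gp1ba, Foxc1, Foxc2, Lims1, Acta2, Tagln and the alpha partners of Itgb2, were chosen after their values were seen. Alternatives were a pseudocount of 0.1, other filters, rescaling to a sum of 1000000, quantile normalization, eBayes with no trend, a replicate block, the number of genes above 0 as a covariate, the mean of both tumor coefficients, and leaving out each library.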

Additional observations from a re-analysis of the deposited data

How the results depend on the processing

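The integrin values rest on 3 control libraries of low depth, for which a single library can decide a sign or a call. Of all genes, 391 passed between tumor-associated and control MLECs. The count was 254 with any gene above 0 tested, 227 with genes at 1 or more in all libraries, and 13 with the number of detected genes as covariate. Leaving out a library gave 245 to 444, with 259 without control replicate 1, 260 without GL261 replicate 1, 245 without GL261 replicate 2 and 247 without B16 replicate 3. For GL261 against control (347) the same filter on genes above 0 gave 218, the covariate 6, and leaving out a library 105 to 363, with 111, 105 and 172 without GL261 replicates 1, 2 and 3. For B16 against control (210) these filters gave 135 and 134, the covariate 17, and leaving out a library 69 to 274, with 85 and 69 without B16 replicates 2 and 3. For GL261 against B16 (1) the counts were 5 with genes at 1 or more in all libraries, 2 with quantile normalization and 6 without a trend, and 1 to 4 when a library was left out, with 4 without B16 replicate 3 and 2 without control replicate 1, GL261 replicate 1 or B16 replicate 1. Fewer genes were tested under the stricter filter. The causes of the other shifts were not tested.

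Same-numbered libraries did not deviate together, with correlations across genes from −0.03 to 0.04 in 9 pairs, and the same number gave the highest correlation in 7 of 18 cases. No pairing by number was therefore seen, though this check could miss a weak shared effect. With the replicate block 303, 230, 146 and 1 genes passed in the 4 comparisons, in the order above, and 0 integrin genes in each.

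Of the integrin genes, 0 passed between tumor-associated and control MLECs, and 1 did with genes at 1 or more in all libraries (Itga6). Leaving out a library gave 0 to 1, namely Itga3 without control replicate 2 and Itga6 without control replicate 3. Which integrin genes lay without overlap also depended on the setting. Without control replicate 2, Itga3 and Itgb3 joined Itga5, Itga6 and Itgb1, and after rescaling Itgb1 overlapped. Fewer libraries make such separation easier for any gene, and the share over all genes is not given for these settings. Several signs turned. With the covariate, Itga9 turned to 0.32 for both tumors joined, and Itga2, Itga3, Itgb1 and Itgb4 to −0.77, −0.44, −0.00769 and −0.45 for GL261. Itgb4 for GL261 was −0.17 after rescaling and −0.22 with quantile normalization, which also turned Itgav for B16 to −0.13. When a library was left out, Itga1 ranged from −0.81 to 0.0161 for both tumors (the latter without B16 replicate 1), from −0.67 to 0.35 for GL261 and from −1.56 to 0.20 for B16, Itgb4 for GL261 from −0.34 to 0.58, and for B16 Itga9 from −0.25 to 0.60 and Itgav from −0.15 to 1.42. For GL261 minus B16 the sign turned in 6 alternatives for Itga3, 4 for Itgb3, 2 for Itgb1 and 1 each for Itga1, Itga5 and Itga6. The causes were not tested. Itga5, Itga6, Itga3, Itgb3, Itgb1, Itgb4 and Itgav kept a positive difference for both tumors joined in all alternatives that could be run. The filters, the fit with no trend, the replicate block and the mean of both tumor coefficients leave the difference itself unchanged. Its sign could not turn in those. Itga2, at 0 in all control libraries, is not counted among these genes and could not be tested without GL261 replicate 2, B16 replicate 2 or B16 replicate 3.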
